A study of Mus musculus with 8 samples.

Results

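Cytosolic heat shock proteins and chaperones were measured in muscle of mice that lack 1 copy of Eif6 (Eif6+/-, labelled Het) and of wild-type mice (WT). The genes are Hspa1a, Hspa1b, Hspa8, Hspb1, Hspb7, Cryab, Hsp90aa1, Dnajb1, Hsph1 and Bag3, and their probes are all gene probes whose RefSeq accession belongs to 1 of these 10 genes. That rule found 13 probes of 9 genes, out of 55681 gene probes on the array and 20660 genes with a matched accession. No probe carried an accession of Hspa1b, which was therefore not analysed here by itself. Whether the Hspa1a probe also binds RNA of Hspa1b was not tested. All 13 probes were well above background in both dyes on all 8 arrays, so none was lost to the filter on dim probes.

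The study hybridised total RNA of gastrocnemius and of tibialis anterior (TA) to Agilent 2-colour arrays, 4 arrays per muscle. Each array held 1 Eif6+/- mouse in Cy5 and 1 age-matched WT mouse in Cy3, paired at random, at 8 to 16 weeks of age. Muscles were frozen in liquid nitrogen right after cervical dislocation, with no treatment. The labels give no strain or sex, and the methods name male C57BL6 littermates. The dyes were never swapped, so within a muscle the genotype and a probe's preference for a dye cannot be told apart. All 8 arrays sat on 1 slide, gastrocnemius in row 1 and TA in row 2, so the place on the slide cannot be told apart from the muscle. Median spot intensity was 60 to 74 in Cy5 and 46 to 61 in Cy3, over local backgrounds of 41 to 44 and 20 to 22, and no spot was saturated. Eif6 itself, by its brightest probe A_52_P85864, had log2 ratios of Eif6+/- over WT of -0.97, -1.15, -0.89 and -1.06 in gastrocnemius and -1.22, -1.03, -0.95 and -0.80 in TA. It was thus below 0 on all 8 arrays, as the genotype labels say, with a mean of -1.02 in gastrocnemius (adjusted p 0.0239) and -0.999 in TA (adjusted p 0.0108). Without gastrocnemius pair 3 or pair 4 its adjusted p in that muscle was 0.121 and 0.155, since no gene at all passed the threshold with either left out.

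Heat shock proteins are molecular chaperones that hold, fold or hand over proteins that have lost or not yet reached their shape. In the cytosol HSP70 proteins do most of the folding with the help of J-domain proteins, which bring clients and start ATP hydrolysis, and of exchange factors, which release the nucleotide; HSP90 takes over clients such as kinases and receptors, and small heat shock proteins bind unfolding proteins without ATP. Contracting muscle uses them to guard the contractile filaments, and many of their genes are switched on by the heat shock factor HSF1 through repeated short units in their promoters.

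A gene was called when its adjusted p was under 0.1 in limma, with p-values adjusted over all probes kept in that comparison, and each gene was counted by its brightest probe. Among the 9 chaperone genes tested, 2 were called higher and 0 lower in Eif6+/- gastrocnemius. Over all 12606 genes tested there, 15.4% were called in either direction, 9.88% higher and 5.55% lower. In TA 2 of the 9 were called higher and 1 lower, beside 16.3% of 12376 genes in either direction, 8.99% higher and 7.27% lower. Their median log2 ratio was 0.131 in gastrocnemius and 0.0732 in TA, beside 0.0197 and 0.0189 for all genes tested. In each muscle 1 of the 2 higher genes was Hspa8 by its brightest probe, and the probes of Hspa8 gave opposite signs. Without Hspa8, 1 of 8 genes was higher in gastrocnemius, and in TA 1 was higher and 1 lower. With its probe A_52_P12877 in place of the brightest, 1 of 9 was higher in gastrocnemius, and in TA 1 was higher and 2 lower. Shares of 2 and 3 in 9 are near these backgrounds and show nothing about the 9 genes as a group. At 0.05, the threshold named in the methods, 0 and 1 of the 9 were called, beside 5% and 6.76% of all genes; 2 and 5 of the 9 had an unadjusted p under 0.05, beside 3655 of 12606 and 3598 of 12376 genes. For the difference of the genotype ratio between the muscles limma called 0 of the 9 genes and 0% of 12200 genes, with 1 and 998 at an unadjusted p under 0.05. Single arrays carried many calls. Without gastrocnemius pair 3 or pair 4 limma called 0 of all genes (2425 and 2655 at an unadjusted p under 0.05), and without TA pair 1, pair 2 or pair 3 it called 68, 532 and 1187.

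**Figure D1:**
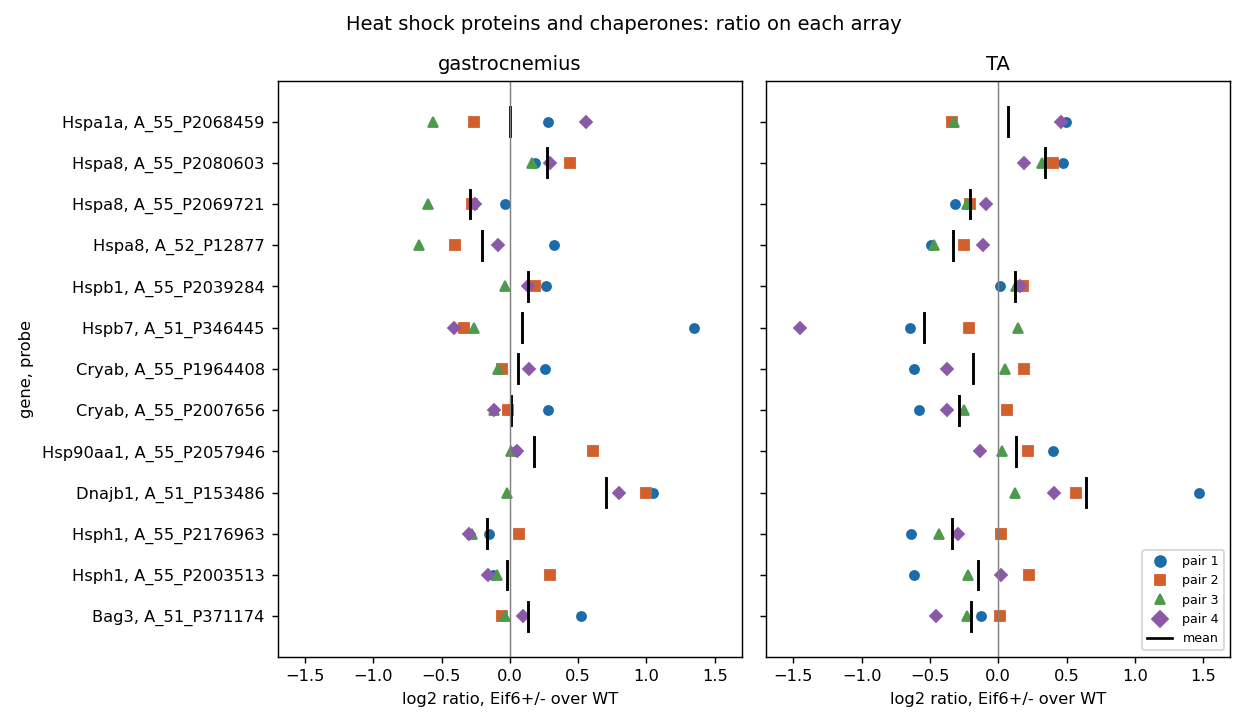
Log2 ratio of Eif6+/- over WT for each of the 13 probes (rows) on each array, with gastrocnemius on the left and TA on the right; symbols are the 4 pairs and the black line is their mean. The first Hspa8 probe lies to the right of 0 on all 8 arrays and Dnajb1 on 7 of 8, Hspa1a is spread to both sides, and Hspb7 has 1 array at 1.35 in gastrocnemius and 1 at -1.45 in TA.

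Among the HSP70 proteins, Hspa1a is the stress-inducible form, made at low levels until cells meet heat or other stress. Its probe A_55_P2068459 had log2 ratios of 0.28, -0.26, -0.56 and 0.56 on gastrocnemius arrays 1 to 4 and of 0.50, -0.34, -0.33 and 0.46 on TA arrays 1 to 4. Pairs 1 and 4 were high and pairs 2 and 3 low in both muscles, although the labels do not say that a pair number stands for the same mice in both. The means were 0.00 (SE 0.18, adjusted p 0.997) in gastrocnemius and 0.07 (SE 0.15, adjusted p 0.787) in TA. The spread between pairs was thus far larger than the mean difference between genotypes.

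The promoter of Hspa1a is shown with those of Hspb1, Hsph1 and Dnajb1, because these genes are known targets of HSF1 and had unlike ratios here. A heat shock element is built from repeats of the unit NGAAN in alternating direction, and a pair of such units reads GAANNTTC or TTCNNGAA; each pattern is its own reverse complement, so both strands are covered, and the patterns overlap by 3 bases where 3 units stand in a row. Windows of 300 bases, from 250 before to 50 after the start site, come from RefSeq (build GRCm38.p6) for 7 of the 10 genes, 9 windows in all. GAANNTTC was in 6 of these 9 windows (5 of 7 genes) and TTCNNGAA in 2 (Hsph1), against 7.86% and 8.52% of all 32841 windows; 3 units in a row were in the 2 overlapping Hsph1 windows, against 0.603% of all windows. TATAAA was in 0 of the 9 windows and in 13.6% of all. Paired units are in capitals in these sequences.
Hspa1a, chr17:34972107-34972406, minus strand: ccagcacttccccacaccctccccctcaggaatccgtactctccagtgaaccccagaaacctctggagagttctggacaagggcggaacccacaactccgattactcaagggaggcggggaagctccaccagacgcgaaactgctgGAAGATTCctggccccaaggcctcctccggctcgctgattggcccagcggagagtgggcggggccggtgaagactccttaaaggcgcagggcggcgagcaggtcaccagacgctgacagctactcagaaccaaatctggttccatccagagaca
Hspb1, chr5:135887669-135887968, plus strand: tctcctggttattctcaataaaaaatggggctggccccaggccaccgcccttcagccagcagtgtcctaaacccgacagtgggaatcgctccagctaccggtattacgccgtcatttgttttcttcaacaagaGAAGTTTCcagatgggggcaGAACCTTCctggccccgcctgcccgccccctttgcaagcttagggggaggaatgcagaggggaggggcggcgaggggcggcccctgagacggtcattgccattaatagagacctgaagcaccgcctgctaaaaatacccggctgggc
Hsph1, chr5:149636266-149636565, minus strand: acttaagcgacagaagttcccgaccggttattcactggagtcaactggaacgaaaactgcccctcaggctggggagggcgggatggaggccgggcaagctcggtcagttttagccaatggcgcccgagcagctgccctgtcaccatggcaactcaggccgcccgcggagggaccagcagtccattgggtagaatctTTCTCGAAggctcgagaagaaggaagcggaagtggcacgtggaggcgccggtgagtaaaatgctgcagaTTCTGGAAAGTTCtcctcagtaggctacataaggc
Dnajb1, chr8:83607925-83608224, plus strand: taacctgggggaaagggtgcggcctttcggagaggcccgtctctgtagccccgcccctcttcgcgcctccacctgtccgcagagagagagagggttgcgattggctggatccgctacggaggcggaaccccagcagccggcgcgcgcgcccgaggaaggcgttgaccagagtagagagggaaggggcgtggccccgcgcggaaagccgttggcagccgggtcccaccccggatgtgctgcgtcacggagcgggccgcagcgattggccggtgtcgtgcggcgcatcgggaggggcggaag
The Hspa1a window has its pair of units 104 to 97 bases before the start site, and the Hspa1b window (chr17:34959189-34959488) has the same pair at the same place and differs from it at 4 of 300 bases. Neither Dnajb1 window and not the Hspb7 window holds a pair of units; Bag3 has 1, after the start site, and the run of 3 units in both Hsph1 windows lies after it too. A match describes letters only; binding of HSF1 was not measured.

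Hspa8 encodes the constitutive HSP70 of the cytosol, present in unstressed cells, and it has 3 probes. The brightest, A_55_P2080603, had log2 ratios of 0.18, 0.44, 0.17 and 0.29 in gastrocnemius and of 0.48, 0.40, 0.32 and 0.19 in TA. All 8 arrays were above 0, and in both muscles every Eif6+/- level (15.88 to 16.00 and 15.84 to 15.98, log2) was above every WT level (15.46 to 15.74 and 15.44 to 15.68). By this probe Hspa8 rose 1.21-fold in gastrocnemius (mean log2 ratio 0.27, SE 0.08, adjusted p 0.0862) and 1.27-fold in TA (0.35, SE 0.07, adjusted p 0.0384). The gastrocnemius call was lost when any 1 of its arrays was left out (adjusted p 0.11, 0.19, 0.188 and 0.255 without pairs 1 to 4), and the TA call without pair 1 (0.189) or pair 2 (0.12).

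The other Hspa8 probes pointed the other way. A_55_P2069721 had log2 ratios of -0.03, -0.28, -0.60 and -0.25 in gastrocnemius and of -0.31, -0.21, -0.23 and -0.09 in TA. It was below 0 on all 8 arrays, with means of -0.29 (adjusted p 0.124) and -0.21 (adjusted p 0.104). A_52_P12877 had 0.33, -0.40, -0.67 and -0.09 in gastrocnemius and -0.50, -0.25, -0.47 and -0.11 in TA. By this probe Hspa8 fell in TA (mean log2 ratio -0.33, SE 0.08, adjusted p 0.056), and in gastrocnemius its mean was -0.21 (adjusted p 0.426). Leaving out TA pair 1, 2 or 3 took that call past 0.1 (adjusted p 0.24, 0.126 and 0.139), as did offset 0 (-0.33, adjusted p 0.111) and the processed signals (-0.35, adjusted p 0.131), while A_55_P2069721 was called lower without gastrocnemius pair 1 (-0.38, adjusted p 0.0827) or without TA pair 4 (-0.25, adjusted p 0.0982). With loess alone it was called lower in both muscles (-0.30, adjusted p 0.0858, and -0.31, adjusted p 0.0572), and in TA also in the deposited table, with no filter and by SAM. Probes of 1 gene thus gave opposite signs on the same arrays, and no direction can be given for Hspa8 as a gene. Whether they bind different transcripts, related sequences or the dyes differently was not tested.

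Dnajb1 encodes HSP40, the J-domain protein that works with inducible HSP70. Its probe A_51_P153486 had log2 ratios of 1.05, 1.00, -0.02 and 0.80 in gastrocnemius and of 1.47, 0.57, 0.12 and 0.41 in TA. Pair 3 was near 0 in both muscles and the other 6 arrays were at 0.41 or more. The levels overlapped between genotypes in gastrocnemius (WT 9.82 to 10.69, Eif6+/- 10.67 to 11.40, log2), and in TA they did not (WT 9.58 to 10.63, Eif6+/- 10.67 to 11.05). Dnajb1 rose 1.63-fold in gastrocnemius (mean log2 ratio 0.70, SE 0.17, adjusted p 0.0609, higher on 3 of 4 arrays) and 1.56-fold in TA (0.64, SE 0.18, adjusted p 0.072, higher on 4 of 4 arrays). The ratios differed between muscles by 0.06 (SE 0.30, adjusted p 0.973). The gastrocnemius call was lost without any 1 of its arrays (adjusted p 0.107, 0.126, 0.121 and 0.199 without pairs 1 to 4). In TA it was lost without pair 1, where the mean came to 0.37 (adjusted p 0.192), and without pair 2 (adjusted p 0.156). The processed signals lost the call in gastrocnemius (adjusted p 0.106) and in TA (0.151), and offset 0 lost it in TA (0.122).

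Immediate early genes answer within minutes to stress and handling, and their summed level moved with Dnajb1 on some arrays. Their summed log2 level in Eif6+/- minus WT, over a list of 18 genes all with a probe, was 0.93, 0.06, 0.09 and 0.37 in gastrocnemius and 1.00, 0.23, -0.20 and 0.63 in TA. In each muscle the sum was highest on pair 1, where the Dnajb1 ratio was highest too, and it was small on gastrocnemius pair 2, where Dnajb1 was high. Bright genes weigh most in this sum, and the brightest, Nr4a1, had ratios of 1.13, 0.358, 0.204 and 0.438, then 1.07, 0.61, -0.19 and 0.545. In limma 3 of the 16 genes tested rose in gastrocnemius (Dusp1 0.70, Nr4a1 0.53 and Maff 0.43) and 1 fell (Myc -0.30). In TA 2 rose, among them Dusp1 (0.97, adjusted p 0.0354). Over all genes 9.88% rose and 5.55% fell in gastrocnemius, and 8.99% and 7.27% in TA. The list had medians of 0.0104 and 0.169, beside 0.0197 and 0.0189 for all genes. The part of immediate early genes in the Dnajb1 and Hspa1a values was not tested. The cold-inducible RNA-binding proteins, whose RNA goes up when tissue cools, had 0 of 2 called in gastrocnemius (limma, 1 at an unadjusted p under 0.05) and 1 of 2 in TA, Cirbp (0.41, adjusted p 0.0607), with the brightest gene Rbm3; their summed levels differed by 0.00, -0.22, 0.01 and -0.19 in gastrocnemius and 0.74, -0.24, 0.58 and 0.35 in TA. Without gastrocnemius pair 3 or 4, or without TA pair 1, limma called 0 genes of either list in that muscle, and Cirbp was not called without TA pair 3 either.

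**Figure D2:**
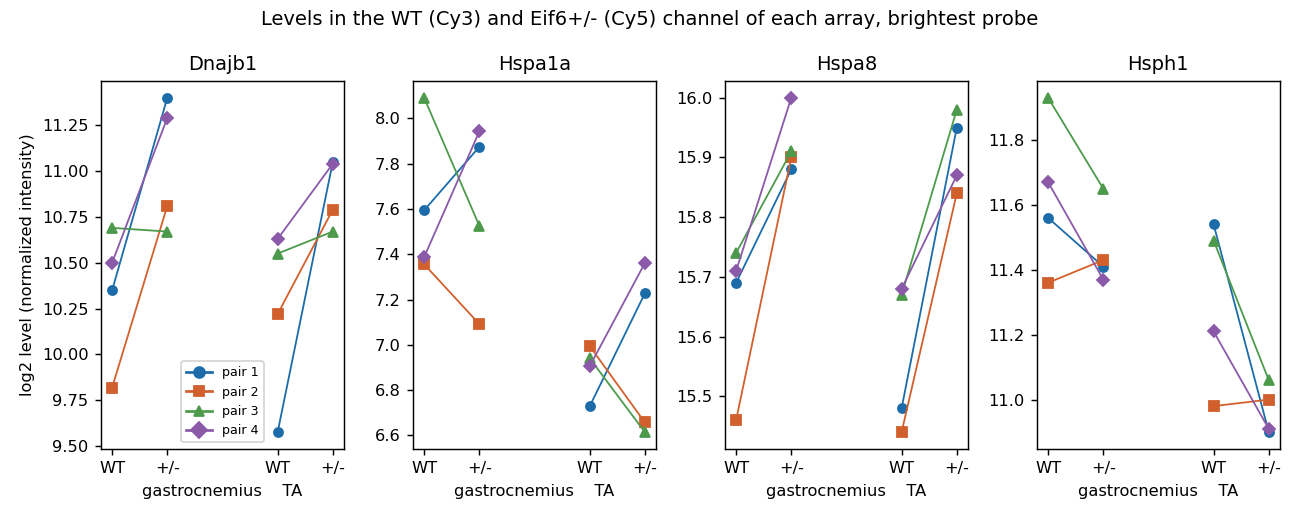
Normalized log2 level of the brightest probe of 4 genes in the WT (Cy3) and Eif6+/- (Cy5) channel, with a line joining the mice of 1 array; gastrocnemius is at the left of each panel and TA at the right. The Dnajb1 lines climb except on pair 3 in gastrocnemius, the Hspa1a lines cross, all Hspa8 lines climb, and 3 of 4 Hsph1 lines fall in each muscle.

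Hsph1 encodes HSP110, an exchange factor that lets HSP70 release its client and also pulls proteins out of aggregates. Its brightest probe A_55_P2176963 had log2 ratios of -0.15, 0.07, -0.28 and -0.30 in gastrocnemius and of -0.64, 0.02, -0.43 and -0.30 in TA. Pair 2 was just above 0 in both muscles, the other 6 arrays were below 0, and the genotypes overlapped in both muscles (in TA, Eif6+/- 10.90 to 11.06 and WT 10.98 to 11.54). Hsph1 fell 1.26-fold in TA by this probe (mean log2 ratio -0.34, SE 0.11, adjusted p 0.088, lower on 3 of 4 arrays), and in gastrocnemius its mean was -0.17 (SE 0.09, adjusted p 0.27); the ratios differed between muscles by 0.17 (SE 0.15, adjusted p 0.78). The TA call was lost without pair 1 (adjusted p 0.324), pair 3 (0.19) or pair 4 (0.128). It was also lost with loess alone (0.102), offset 0 (0.144), the processed signals (0.206) and the deposited table (0.103). The dimmer probe A_55_P2003513 had ratios of -0.13, 0.29, -0.09 and -0.16 in gastrocnemius and -0.61, 0.23, -0.22 and 0.02 in TA, with means of -0.02 (adjusted p 0.914) and -0.15 (adjusted p 0.472). It placed pair 2 highest in both muscles, as the brightest probe did.

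Bag3 encodes another exchange factor, which couples HSP70 and small heat shock proteins to the autophagy of damaged filament proteins in muscle. Its probe A_51_P371174 had log2 ratios of 0.52, -0.05, -0.04 and 0.09 in gastrocnemius and of -0.13, 0.01, -0.23 and -0.45 in TA. Gastrocnemius pair 1 stood above the other 7 arrays and TA pair 4 below them. Neither mean passed the threshold (0.13, SE 0.11, adjusted p 0.483, and -0.20, SE 0.09, adjusted p 0.179). The difference between the muscles was 0.33 (SE 0.15), which had an unadjusted p of 0.0468, the only one of the 9 genes under 0.05, and an adjusted p of 0.643.

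Hsp90aa1 encodes the inducible HSP90 of the cytosol. Its probe A_55_P2057946 had log2 ratios of 0.05, 0.61, 0.01 and 0.05 in gastrocnemius and of 0.40, 0.22, 0.02 and -0.14 in TA. In gastrocnemius pair 2 was the only array far from 0, and its WT level of 9.75 was low beside the other 3 WT mice (10.31 to 10.42). The means were 0.18 (SE 0.11, adjusted p 0.356) and 0.13 (SE 0.09, adjusted p 0.413). Eif6+/- mice varied little in this probe, with an SD of 0.0709 in gastrocnemius and 0.0165 in TA (n = 4 each), while WT mice had 0.316 and 0.216. A smaller SD in Eif6+/- than in WT mice was not particular to this gene. In TA the SDs were 0.076 and 0.262 for the brightest Hsph1 probe and 0.19 and 0.479 for Dnajb1. Among the chaperone probes in TA, only Hspa1a (0.384 and 0.116) and the dimmer Cryab probe (0.192 and 0.104) went the other way. Whether the dye or the mice set this spread was not tested.

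The small heat shock proteins Hspb1, Cryab and Hspb7 bind unfolding proteins and, in muscle, sit at the contractile filaments. Hspb1, which encodes HSP27, had log2 ratios by probe A_55_P2039284 of 0.27, 0.18, -0.04 and 0.13 in gastrocnemius and of 0.02, 0.18, 0.13 and 0.16 in TA. It was above 0 on 7 of 8 arrays, with means of 0.14 (SE 0.08, adjusted p 0.318) and 0.12 (SE 0.07, adjusted p 0.276), neither of which passed. Cryab encodes alpha-B crystallin, which binds desmin and titin, and has 2 probes. The brighter, A_55_P1964408, had ratios of 0.26, -0.06, -0.08 and 0.14 in gastrocnemius and -0.61, 0.19, 0.05 and -0.37 in TA. The dimmer, A_55_P2007656, had 0.28, -0.01, -0.11 and -0.12 and then -0.58, 0.06, -0.25 and -0.38. Both placed gastrocnemius pair 1 highest and TA pair 1 lowest of the 8 arrays, and neither was called in either muscle (means of 0.06 and 0.01 in gastrocnemius, adjusted p 0.676 and 0.965; -0.19 and -0.29 in TA, adjusted p 0.378 and 0.12). Without TA pair 2 the dimmer probe was called lower (-0.40, adjusted p 0.0961).

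Hspb7 encodes a small heat shock protein of heart and skeletal muscle. Its probe A_51_P346445, printed 10 times on each array, had log2 ratios of 1.35, -0.33, -0.26 and -0.41 in gastrocnemius and of -0.64, -0.21, 0.15 and -1.45 in TA. The spots of 1 array lay close together, with an SD of 0.0666 to 0.106 over 9 or 10 spots, so the spread lies between the arrays and not between the spots. In gastrocnemius pair 1 the WT level was 9.85, the lowest of that muscle's WT mice (the others 10.74 to 11.56), and in TA pair 4 the WT level was 11.28, the highest of its muscle (the others 10.01 to 10.65). The means were 0.09 (SE 0.28, adjusted p 0.873) and -0.54 (SE 0.21, adjusted p 0.148), and the ratios differed between muscles by 0.63 (SE 0.41, adjusted p 0.714). Without gastrocnemius pair 1 the sign turned and Hspb7 was called lower (-0.34, adjusted p 0.0767), and without TA pair 3 it was called lower in TA (-0.77, adjusted p 0.0776).

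Slow fibre genes had their highest and lowest sums on the arrays where Hspb7 had its highest and lowest ratios. The summed log2 level of the 9 slow fibre markers, all well above background in each sample, differed between Eif6+/- and WT by 3.17, -1.05, 0.21 and -0.17 in gastrocnemius and by -0.07, -0.51, -0.07 and -1.42 in TA, with Myl3 as the brightest gene. Gastrocnemius pair 1 was the highest and TA pair 4 the lowest of the 8 arrays in this sum, as in the Hspb7 ratio, while on TA pair 1 Hspb7 was low (-0.64) with a sum near 0, and on gastrocnemius pairs 2 and 3 its ratios were alike and the sums were not. In gastrocnemius 0 of the 9 markers were called, with a median of 0.382 (limma; 0 at an unadjusted p under 0.05), and in TA 5 fell, with a median of -0.465. Without TA pair 1 none of the 5 was called, and without gastrocnemius pair 1 limma called 3 lower in that muscle. Their part in the Hspb7, Cryab and Bag3 values was not tested. In RNA of whole muscle, fewer fibres of a type and less RNA per fibre cannot be told apart.

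**Figure D3:**
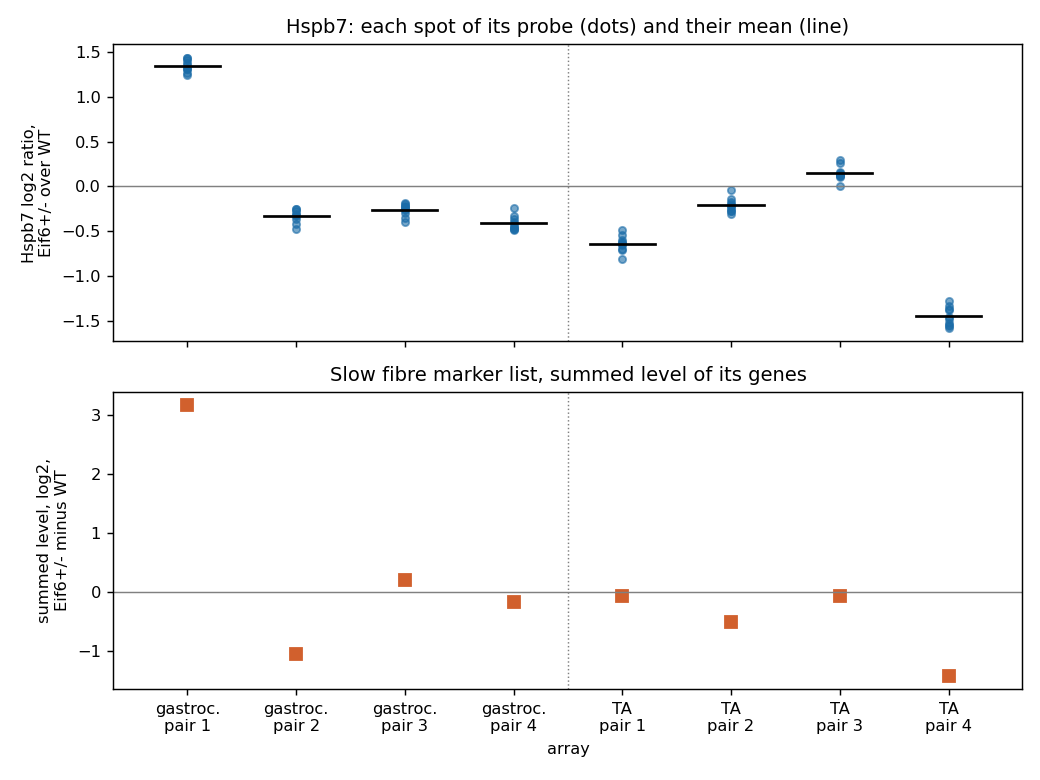
Top: log2 ratio of Eif6+/- over WT for each spot of the Hspb7 probe (dots) and their mean (line) on each of the 8 arrays. Bottom: summed log2 level of 9 slow fibre markers in Eif6+/- minus WT on the same arrays. Gastrocnemius pair 1 (1.35 and 3.17) and TA pair 4 (-1.45 and -1.42) stand out in both.

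Levels were also compared between the muscles within each genotype, which asks where a chaperone is more abundant and keeps the dye the same. In WT mice 1 of the 9 genes was called, higher in gastrocnemius, beside 22.8% of 11833 genes in either direction and 8.75% higher in gastrocnemius. In Eif6+/- mice 5 of the 9 were called, all higher in gastrocnemius, beside 16.7% of 12607 genes in either direction and 6.73% higher. The median difference over the 9 was 0.211 in WT and 0.23 in Eif6+/- mice, beside -0.0348 and -0.0244 for all genes, so a like median goes with unlike counts. At 0.05 the counts were 1 and 2, beside 13.6% and 8.5% of all genes. The genotype difference of these muscle differences is the muscle difference of the ratios given above, in which 0 of the 9 genes were called and 1 had an unadjusted p under 0.05, so the count of 5 beside 1 does not show that the genotypes differ. Leaving out gastrocnemius pair 1, 3 or 4 or TA pair 1, 2 or 4 left 3, 3, 2, 2, 3 and 3 genes called in Eif6+/- mice, and leaving out gastrocnemius pair 2 gave 2 in WT mice, with Hspb1 added (0.27, adjusted p 0.0694). The counts over all genes moved too: to 1662, 1764, 1693 and 1711 in WT mice without gastrocnemius pair 3 or TA pair 2, 3 or 4, and to 1067, 1225, 1195, 977 and 1098 in Eif6+/- mice without gastrocnemius pair 1, 2 or 4 or TA pair 1 or 2.

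Hspa1a was the gene called in WT. Its WT levels (log2) were 7.59, 7.36, 8.09 and 7.39 in gastrocnemius and 6.73, 6.995, 6.94 and 6.91 in TA. All gastrocnemius values were above all TA values, by 0.71 in the mean (SE 0.15, adjusted p 0.0178), which is 1.64-fold. Hspa1a is the dimmest of the 9 genes, and the size of this difference depended on the processing, from 0.71 as given here to 1.19 with the processed signals of the scanner software. In Eif6+/- mice they were 7.87, 7.09, 7.53 and 7.94 in gastrocnemius and 7.23, 6.66, 6.62 and 7.36 in TA, which overlap, with a difference of 0.64 (SE 0.21, adjusted p 0.0914). That second call was lost without gastrocnemius pair 1, 3 or 4 (adjusted p 0.199, 0.117 and 0.197) and without TA pair 1, 2 or 3 (0.121, 0.21 and 0.155), and with offset 0 (0.98, adjusted p 0.108) or no filter on dim probes (adjusted p 0.151), whereas the WT call held without any 1 array.

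Hsph1 had Eif6+/- levels by its brightest probe of 11.41, 11.43, 11.65 and 11.37 in gastrocnemius and of 10.90, 11.00, 11.06 and 10.91 in TA. The muscles did not overlap, and the difference was 0.50 (SE 0.08, adjusted p 0.00769), with 0.45 by the dimmer probe (adjusted p 0.029). In WT mice the levels were 11.56, 11.36, 11.93 and 11.67 in gastrocnemius and 11.54, 10.98, 11.49 and 11.21 in TA, which overlap, with a difference of 0.33 (SE 0.15, adjusted p 0.178).

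Among the small heat shock proteins, Hspb7 had Eif6+/- levels of 11.20, 10.41, 10.71 and 11.15 in gastrocnemius and of 9.70, 10.44, 10.15 and 9.83 in TA. Only gastrocnemius pair 2 and TA pair 2 met, and the difference was 0.84 (SE 0.20, adjusted p 0.0346), while in WT mice, whose levels overlapped widely, it was 0.21 (SE 0.35, adjusted p 0.729). For Cryab the difference in Eif6+/- mice was 0.48 (adjusted p 0.0612) by the brighter probe and 0.45 (adjusted p 0.0346) by the dimmer, with 0.23 (adjusted p 0.404) and 0.16 (adjusted p 0.468) in WT mice. Hspb1 differed by 0.23 in Eif6+/- mice (adjusted p 0.0769) and by 0.22 in WT mice (adjusted p 0.115), so nearly the same difference fell on either side of the threshold. The brighter Cryab probe lost its call without gastrocnemius pair 3 or 4 or TA pair 1 or 4 (adjusted p 0.111, 0.128, 0.153 and 0.133), and Hspb1 without gastrocnemius pair 1 or 4 or TA pair 1, 2 or 4 (0.178, 0.174, 0.184, 0.15 and 0.142). Hspb1 also lost it with offset 0 (adjusted p 0.117), with no filter on dim probes (0.112) and with pair number as a block (0.112). With the processed signals the Hspb1 difference changed sign (-0.0613, adjusted p 0.569). Hspb7, both Hsph1 probes and the dimmer Cryab probe kept theirs without any 1 array. With the processed signals neither Cryab probe was called (0.20, adjusted p 0.313, and 0.25, adjusted p 0.17).

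**Figure D4:**
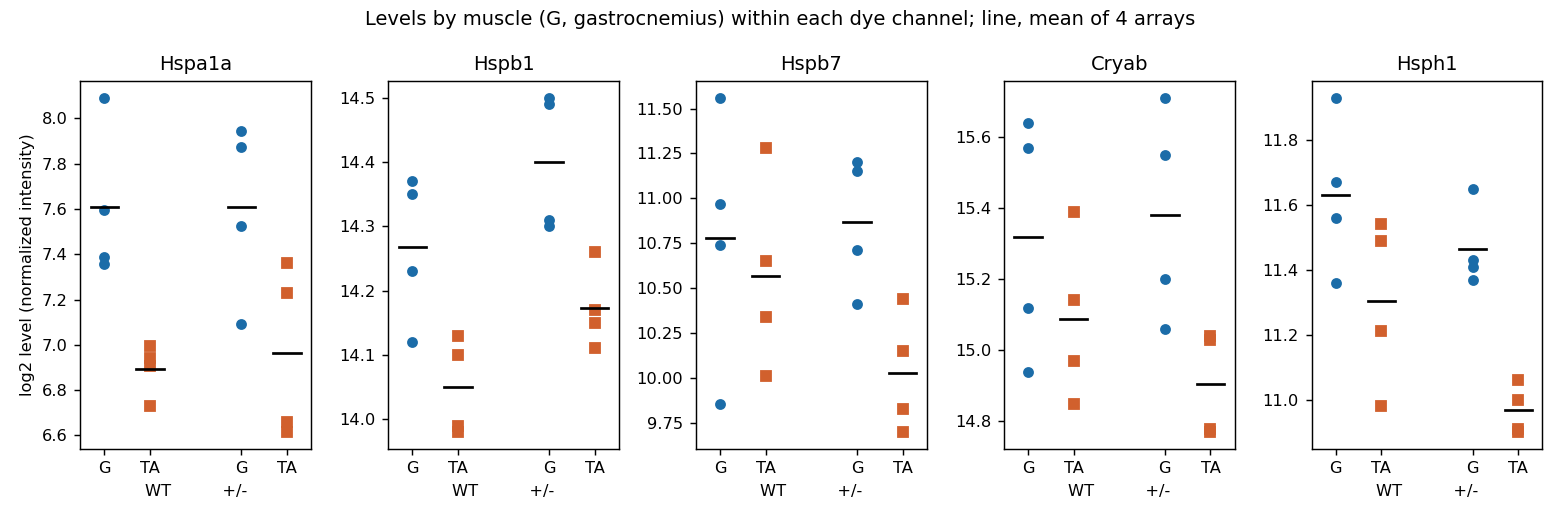
Normalized log2 level of the brightest probe of the 5 genes called between the muscles, in WT mice (left of each panel) and Eif6+/- mice (right); circles are gastrocnemius (G), squares TA, and lines the mean of 4 mice. Hspa1a does not overlap between muscles in WT mice, and Hsph1, Cryab and Hspb1 do not in Eif6+/- mice. The share of all genes without such overlap was not counted, so these separations have no background beside them.

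The remaining genes, Hspa8, Hsp90aa1, Dnajb1 and Bag3, were not called between the muscles in either genotype, with differences of the brightest probe from -0.18 (Bag3 in WT mice) to 0.16 (Dnajb1 in Eif6+/- mice). Without gastrocnemius pair 3 the Hspa8 probe A_52_P12877 was called higher in Eif6+/- gastrocnemius (0.28, adjusted p 0.0674). Slow fibre markers, and markers of several other cell types, differed between the muscles much more. Their summed level was 13.94, 16.06, 15.41 and 17.28 in WT gastrocnemius and 13.78, 15.19, 13.57 and 15.32 in WT TA, which overlap, and 17.11, 15.01, 15.62 and 17.11 against 13.71, 14.68, 13.50 and 13.90 in Eif6+/- mice, which do not. In WT mice 6 of the 9 markers were higher in gastrocnemius (median 2.09), and in Eif6+/- mice 8 of 9 (median 2.17). Fat cell genes were higher in gastrocnemius for 4 of 5 in WT mice (median 2.38) and 3 of 5 in Eif6+/- mice (median 1.54, with 1 lower), connective tissue genes for 5 of 7 (median 1.06) and 1 of 7 (median 0.518), and myelinated nerve genes for 1 of 6 (median 0.436) and 5 of 6 (median 0.551). The slow fibre counts stayed at 6 to 7 and 7 to 8 called with any 1 array left out, and the fat cell count in WT mice at 4. In Eif6+/- mice the fat cell count ranged from 0 to 5 and the connective tissue count from 0 to 4, and the connective tissue count in WT mice came to 3 without TA pair 1 or 3. With 1 array left out the myelinated nerve count ranged from 0 to 3 in WT mice and from 4 to 5 in Eif6+/- mice. Of the cold-inducible genes limma called 1 of 2 higher in gastrocnemius in WT mice and 0 of 2 in Eif6+/- mice. Immediate early genes had 1 of 15 lower in WT mice, and 1 of 16 higher and 2 lower in Eif6+/- mice. With 1 array left out the immediate early count ranged from 0 to 3 in WT mice and from 1 to 4 in Eif6+/- mice. The part of fibre types, of other cells and of these genes in the muscle differences of the chaperones was not tested.

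Partners of these chaperones were counted from lists of the same pathways. Among all genes tested, 9.88% were called higher and 5.55% lower in gastrocnemius, and 8.99% higher and 7.27% lower in TA. Of 13 other cytosolic J-domain proteins tested, 3 rose in gastrocnemius (Dnaja4 0.63, Dnajb6 0.43 and Dnajc7 0.35) and 3 in TA (Dnajb6 0.47, Dnaja1 0.38 and Dnajc13 0.22), where 1 fell (Dnajb2 -0.28), with medians of 0.125 and 0.0825. Among 6 other HSP70 and HSP110 proteins Hspa4l rose in gastrocnemius (0.55, adjusted p 0.0285) and Hspa1l fell in TA (-0.30, adjusted p 0.047), with medians of 0.0662 and -0.0334. Hspb8, the partner of Bag3, fell in gastrocnemius (-0.65, adjusted p 0.0316, lower on 4 of 4 arrays), the only call among 4 other small heat shock proteins (medians -0.0764 and -0.137; in TA limma called 0 of 4, with 0 at an unadjusted p under 0.05).

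HSP90 with its co-chaperones, which load and time its clients, had 1 of 15 higher (Unc45b 0.24) and 3 lower, among them Ptges3 (-0.42) and Stip1 (-0.40), in gastrocnemius. In TA 4 of 15 fell, among them Stip1 (-0.46) and Ahsa1 (-0.31), and none rose, with medians of 0.0657 and 0.0168. Stip1, the adaptor between HSP70 and HSP90, was lower on all 8 arrays. Of 9 HSP70 exchange factors and partners, Bag5 rose (0.24) and Stub1, the ubiquitin ligase that reads chaperone-bound clients, fell (-0.43) in gastrocnemius, and Hspbp1 (-0.44), Stub1 (-0.35) and Bag1 (-0.27) fell in TA, with medians of -0.0338 and -0.165. The 8 partners of Bag3 in autophagy had Hspb8 and Stub1 lower in gastrocnemius and Stub1 in TA, with medians of -0.18 and -0.149.

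The chaperonin TRiC with prefoldin had 1 of 14 lower in gastrocnemius (Cct6a -0.45), and in TA 1 higher (Cct5 0.29) and 2 lower (Cct7 -0.29 and Cct4 -0.24), with medians of -0.0551 and -0.0955. Among 6 heat shock factors and regulators, Ubqln1 rose (0.34) and Hsf4 fell (-0.23) in gastrocnemius, and Hsf1, which encodes the main activator of heat shock genes, fell in TA (-0.27, adjusted p 0.0693), with medians of -0.0172 and -0.0641. Chaperones of the endoplasmic reticulum had 4 of 17 lower in gastrocnemius, beside 5.55% of all genes. The 4 included Calr (-0.62), Hsp90b1 (-0.45) and Pdia3 (-0.42). In TA Hspa5 (0.32) and Hspa13 (0.26) rose and Calr fell (-0.35). The medians of this list in gastrocnemius and TA were -0.108 and 0.0278. Mitochondrial chaperones and proteases had 3 of 12 higher in gastrocnemius (Hspd1 0.46, Hspe1 0.35 and Lonp1 0.33) and 3 of 12 lower in TA (Trap1 -0.40, Clpp -0.37 and Grpel1 -0.28), with medians of 0.184 and -0.0372.

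In each of these lists limma called 0 genes for the difference of the genotype ratio between muscles, with 0 to 4 at an unadjusted p under 0.05, so no list is shown to differ between gastrocnemius and TA. Without gastrocnemius pair 3 or 4 no gene of these lists was called in that muscle, and without TA pair 1 none in TA. Unc45b, Bag5 and Hsf4 in gastrocnemius and Dnajc13 in TA lost their calls when any 1 array was left out. Other TA calls, such as those of Hsf1 and Bag1, were also lost without pair 2 or 3. All the named genes kept their sign with each array left out. Under other processing the HSP90 count in gastrocnemius ranged from 2 to 7. In TA the exchange factor and mitochondrial counts each ranged from 0 to 3. Between the muscles in WT mice 9 of 12 mitochondrial chaperones were lower in gastrocnemius (median -0.315), beside 14.1% of all genes called lower, and 3 of 12 in Eif6+/- mice (median -0.115), beside 9.98%. The WT count came to 3, 4 and 4 without gastrocnemius pair 3, TA pair 3 or TA pair 4 and to 5 to 11 under other processing, and the Eif6+/- count to 1 or 2 without any 1 array and to 1 to 9 under other processing.

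**Figure D5:**
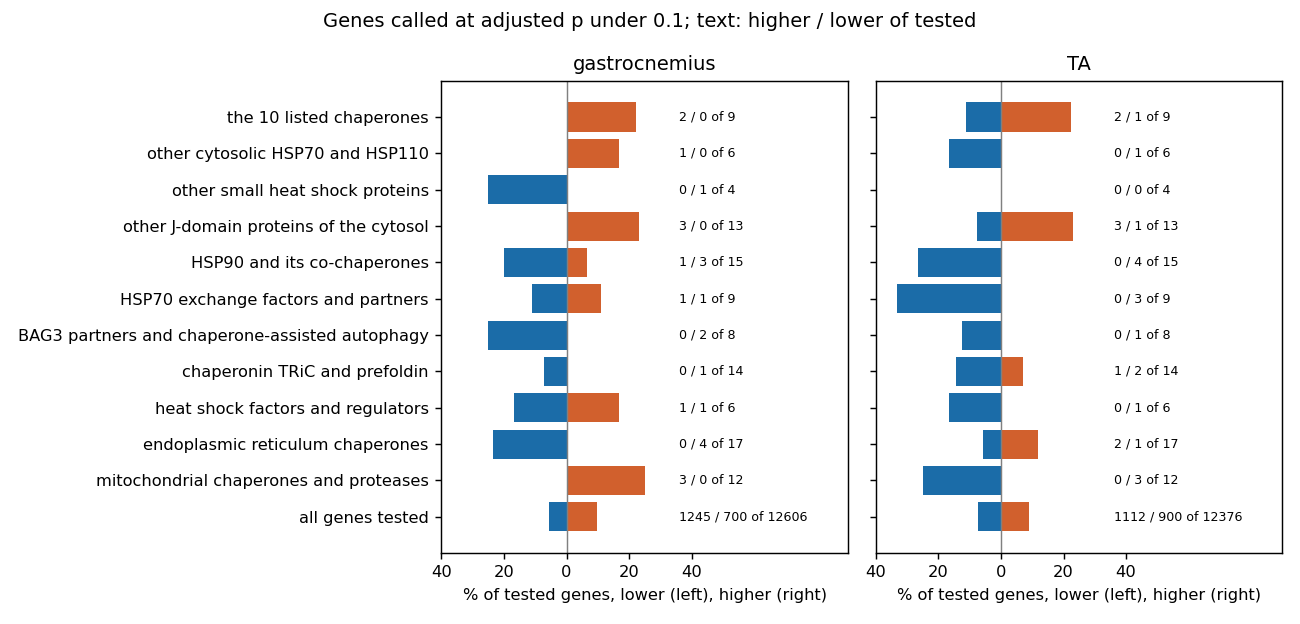
Percent of the tested genes of each list called lower (left of 0) or higher (right of 0) in Eif6+/- muscle, with the counts higher and lower of those tested written beside each bar; all genes tested are in the last row. The 9 chaperone genes have 2 higher in each muscle, 1 of them Hspa8, whose probes gave opposite signs. In TA the HSP90 and exchange factor lists have calls to the left only (4 of 15 and 3 of 9), with 11 and 6 genes not called.

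Marker lists of other cells and fibres were counted in the same way. The shares of all genes were 9.88% higher and 5.55% lower in gastrocnemius, and 8.99% higher and 7.27% lower in TA. Fast fibre genes had 1 of 12 higher and 3 lower in gastrocnemius and 2 higher and 2 lower in TA, with Pvalb as the brightest gene and sums that differed between genotypes by -0.06 to 0.34. General muscle fibre genes had 3 of 7 lower in gastrocnemius and 2 of 7 in TA (brightest Acta1, sums -0.32 to 0.10), and endothelial genes 2 and 4 of 8 lower (brightest Vwf, sums -0.32 to -0.06). Red blood cell genes had 0 of 4 called in gastrocnemius (limma, 3 at an unadjusted p under 0.05) and 4 of 4 lower in TA, where their summed level, led by Hba-a1, differed by -0.70, -1.21, -0.64 and -0.35. Leukocyte genes had 1 of 4 lower in gastrocnemius and 1 of 6 in TA (brightest Csf1r, sums -1.22 to 0.38), and fat cell genes 2 of 5 lower in gastrocnemius and 2 of 5 higher in TA (brightest Fabp4, sums -1.39 to 0.67). Connective tissue genes had 0 of 7 called in either muscle (limma, 1 and 0 at an unadjusted p under 0.05; brightest Col1a2, sums -1.42 to 2.13), and myelinated nerve genes 0 of 6 in gastrocnemius (0 at an unadjusted p under 0.05) and 3 of 6 lower in TA (brightest Pmp22, sums -0.53 to 0.23). Without gastrocnemius pair 3 or 4 these counts came to 0 in that muscle, and without TA pair 1 to 1 fast fibre and 1 nerve gene in TA. Other omissions raised them: without gastrocnemius pair 1 limma called 3 of 4 red blood cell genes lower in that muscle and 8 of 12 fast fibre genes (5 higher and 3 lower). For the difference of the ratio between muscles limma called 0 genes of these marker lists, with 0 to 4 per list at an unadjusted p under 0.05. The part of these cells in the chaperone values was not tested.

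The stress-inducible genes were last compared among themselves over the 8 arrays. The mean log2 ratio of Hspa1a, Dnajb1 and Hsph1 was 0.392, 0.267, -0.288 and 0.35 in gastrocnemius and 0.444, 0.0856, -0.213 and 0.19 in TA. It was lowest on pair 3 in both muscles and highest on pair 1. Hspa1a and Dnajb1 followed this mean, of which they are part (Pearson r 0.802 and 0.921, n = 8 arrays), and Hsph1 did not (-0.0089). Among genes outside the mean, r was 0.41 for Hspb1, 0.373 for Hsp90aa1, 0.345 for Hspa8, 0.336 for Bag3, 0.0258 for Hspb7 and -0.184 for Cryab. Among 12182 genes kept in both muscles, the 5 with the highest r were Ccz1 (0.959), Cdk5rap2 (0.956), Ggnbp2 and Xkrx (0.94 each) and Polr1c (0.939). Arrays of both muscles share the slide and the dye order, and an r over 8 arrays is given as a description.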

How the data were processed

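The median spot and background values deposited for each array are in units of intensity, as the scanner software of the authors wrote them. That software's own ratio of both dyes is deposited as log10, and the value table deposited by the authors is in log2. Starting from the intensities, normexp background correction (offset 50), loess within arrays with control spots at weight 0, and quantile normalization over the 16 channels were run in limma 3.58.1 (R 4.3.3); spots of a probe were averaged. A ratio is log2 of Cy5 (Eif6+/-) over Cy3 (WT), and a level is the log2 normalized intensity of 1 channel. A probe was kept for a muscle if each of its 4 arrays had it well above background in Cy3 or in Cy5. The limma fit tested each comparison, with Benjamini-Hochberg adjusted p under 0.1. The deposited table correlates at 0.999963 to 0.999996 with loess of uncorrected intensities. Python 3.11.15 and matplotlib 3.10.9 read the sequences and drew the plots.

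Genes were named by rule: the 10 chaperone genes with every probe; from each other list the 3 largest increases and 3 largest decreases per muscle among called genes with 1 sign on all 4 arrays, of which not every gene is named, printed for the chaperone lists and the immediate early and cold-inducible genes, and the brightest gene of each marker list; the 5 genes most like the mean of the stress-inducible genes; and Eif6. Members and lists were chosen with earlier results of these data known.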

Additional observations from a re-analysis of the deposited data

Results flagged for a closer look

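In 5 of 78 groups of 4 arrays (13 probes, 2 muscles, and the ratio, WT level and Eif6+/- level of each) 1 array lay far from the other 3, by Dixon's criterion for a single distant value; chance alone gives about 1 in 20. All 5 are in gastrocnemius, and 4 of them are on pair 2. The Hspb7 ratio on gastrocnemius pair 1 was 1.35, with the other 3 arrays at -0.41 to -0.26. For Hsp90aa1 on pair 2, the ratio was 0.61 (others 0.01 to 0.05) and the WT level 9.75 (others 10.31 to 10.42), so these are 1 event seen in both quantities. The Eif6+/- level of the Hspa8 probe A_55_P2069721 on pair 2 was 14.17 (others 14.31 to 14.33), and the ratio of the dimmer Hsph1 probe on pair 2 was 0.29 (others -0.16 to -0.09). No cause was tested.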

How the results depend on the processing

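Values were recomputed with other processing (loess alone, offset 0, no background correction, the scanner software's processed signals, the deposited table, no filter or a strict filter on dim probes, a threshold of 0.05, SAM, a replicate block) and with each array left out. Not every alternative was run for each comparison. SAM was run only for the genotype ratios within a muscle, and the block only for the muscle difference and the levels. The deposited table and the strict filter were run only for ratios. Levels had loess and Aquantile normalization in place of loess alone. Over the 13 probes and 5 comparisons, 472 of 533 values under other processing kept their sign and their side of the threshold; 27 lost a call, 10 gained one, 22 changed sign without a call and 2 reversed. With an array left out it was 339 of 416, with 33 lost, 6 gained, 37 of other sign and 1 reversed.

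Of the 9 genes, 2 were called in gastrocnemius with 0.1; this came to 1 with offset 0 (Dnajb1), 0 with the processed signals (2 at an unadjusted p under 0.05 in limma) and 0 at 0.05. In TA 3 came to 1 with offset 0 (Hspa8), 0 with the processed signals (2 at an unadjusted p under 0.05) and 1 at 0.05 (Hspa8), and SAM called 4, with Hspb7 (-0.54) added as lower. Loess alone and the deposited table left 2 in TA, without Hsph1 (adjusted p 0.102 and 0.103). For the levels between muscles, WT mice had 2 with the processed signals (Bag3 added, -0.34), and Eif6+/- mice had 3 with offset 0, 3 with no filter (both without Hspa1a and Hspb1) and 2 at 0.05. Leaving out 1 array gave 0 to 1 genes in gastrocnemius, 0 to 3 in TA, 1 to 2 for WT levels and 2 to 5 for Eif6+/- levels. Over all genes tested the same omissions left 0 to 1779, 68 to 2014, 1662 to 2730 and 977 to 2370 called. Among the other kinds of processing, shares of all genes are given in this report only for the threshold of 0.05. The remaining counts of the 9 genes thus have no background beside them. The muscle difference of the ratio had 0 of 9 under each alternative run (limma, 1 at an unadjusted p under 0.05 in the fit reported).

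Values that reversed were Hspb7 in gastrocnemius without pair 1 (-0.34, adjusted p 0.0767; 0.25 without pair 4), and, with the processed signals, the Eif6+/- level differences of Hspa8 (-0.24, adjusted p 0.0388) and Hspb1 (-0.0613, adjusted p 0.569); those signals shift the median of all genes to -0.111 in that comparison and -0.14 in WT mice. Dnajb1 kept its sign throughout, 0.59 to 0.95 in gastrocnemius (adjusted p 0.0568 to 0.199) and 0.37 to 0.82 in TA (0.0605 to 0.192). The cause was not tested. Calls gained under other processing were, beside those above, the Hspa8 probe A_55_P2069721, lower in gastrocnemius with loess alone and lower in TA with loess alone, the deposited table (-0.30, adjusted p 0.0677), no filter (-0.21, adjusted p 0.0828) and SAM; the dimmer Cryab probe, lower in TA by SAM (-0.29); and the Eif6+/- level of A_52_P12877 with loess and Aquantile normalization (0.24, adjusted p 0.0854) and with the block (0.23, adjusted p 0.0913). Both Cryab probes lost their Eif6+/- level calls with the processed signals (0.20 and 0.25). Hspa1a in WT levels and Hspb7 and Hsph1 in Eif6+/- levels were called under each alternative run; the Hspa1a difference ran from 0.71 to 1.19 under other processing in WT mice and from 0.63 to 1.17 in Eif6+/- mice, where offset 0 and no filter lost its call.

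Pair number as a block in limma gave 0 genes for the muscle difference, 1 for WT levels and 4 for Eif6+/- levels, without Hspb1 (adjusted p 0.112). Log2 ratios of equal pair numbers correlated across genes at -0.145, 0.0186, -0.356 and 0.0895. For WT levels the correlations were -0.384, 0.11, -0.0753 and 0.182, and for Eif6+/- levels 0.185, 0.0157, 0.018 and 0.148. Such correlations cannot settle whether equal numbers are the same mice, which the labels do not say.

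Limits: with 4 arrays per muscle a single array decides most calls, the dyes were not swapped, and the Hspa8 probes gave unlike signs. All probes of the 9 genes were above background, but Hspa1a is dim, and the size of its muscle difference moved with the handling of background.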
